A study of Mus musculus with 12 samples.

Results

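The genes described here are 50 genes of ribosome biogenesis, most of them known targets of the transcription factor MYC, followed in mouse medulloblastoma cells given the histone deacetylase inhibitor LBH589 (panobinostat). The members were chosen by gene symbol with earlier results of these data known, so their counts beside all genes are descriptions. The probe set with the highest mean over the 12 arrays stood for each gene. A probe set that names the gene alone was found for 49 of the 50, and all 49 were among the 18652 genes tested of 22180 on the array. For Tsr1 the array held only a probe set shared with Srr, and it was not used.

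The series asked which changes in expression go with the killing of these cells by the inhibitor. The cells came from 3 MP tumours, MP525, MP567 and MP570, of a mouse model in which MYC drives a Group 3 tumour. They had been isolated from cerebella of immunodeficient NSG mice, dissociated and plated in neurocult medium with proliferation supplement. Each tumour gave 4 cultures, treated with 0.00025% DMSO or with 25 nM LBH589 for 6 h or for 12 h, so that each of the 4 groups held 3 arrays, 1 per tumour. The labels name no allele, no animal age and no number of animals per tumour. They do not say whether the 4 cultures of a tumour came from the same animal. Where tumour is not in the fit, p-values measure the spread between the cultures of the 3 tumours within a group. Where it is, they measure the spread of cultures left within tumours. Neither is known to be a spread between animals. MP tumours are generally described as cerebellar stem cells that carry stabilised Myc and dominant-negative p53, which all 4 groups would share. No source used here says whether the Myc probe set reads the introduced Myc.

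Ribosomes are built in the nucleolus. RNA polymerase I copies the ribosomal DNA into a long precursor RNA. Small nucleolar ribonucleoproteins (snoRNPs) modify this precursor, the small subunit processome and a chain of large subunit factors fold and cut it, and late factors carry the subunits to the cytoplasm. MYC is known to raise the transcription of many of these genes through E-boxes, short DNA sites of which CACGTG is the form its dimer with MAX binds best, and Group 3 medulloblastoma is the subgroup best known for high MYC.

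The arrays were alike in scale, with medians of 7.10 to 7.21 on the log2 scale and pairwise correlations of 0.965 to 0.991 over probe sets. Arrays have no read depth, and precision here is set by their number. All 8 neural progenitor markers listed, among them Vim, Pax6 and Sox2, and 5 of 6 granule lineage markers, among them Zic1 and Atoh1, lay above the median of all genes on the array (7.59). So did 4 of 5 mature neuron, 3 of 5 astrocyte, 2 of 4 oligodendrocyte, 4 of 7 microglial, 4 of 5 endothelial and 4 of 5 fibroblast markers. The microglial list averaged 7.47 to 7.86 on the DMSO arrays and 7.58 to 7.80 on the LBH589 arrays, the fibroblast list 7.47 to 8.42 and 7.43 to 8.51, the endothelial list 7.32 to 8.07 and 7.75 to 8.29. The neural progenitor list averaged 9.30 to 10.12 and 9.54 to 10.13, and the granule lineage list 9.06 to 10.07 and 8.79 to 9.37. These ranges overlap between treatments, but within tumours some lists moved with LBH589. In all 6 pairs of cultures the granule lineage list was lower under LBH589 (by -1.03 to -0.22 on the log2 scale) and the astrocyte list was lower (-0.30 to -0.06), while the endothelial list (0.07 to 0.48), the mature neuron list (0.02 to 0.42) and the oligodendrocyte list (0.01 to 0.38) were higher. The neural progenitor list was higher in 5 of 6 pairs, the fibroblast list in 4 and the microglial list in 2. By the same limma test as for the members, single markers that fell were Msi1 and Neurod1 at both times and Prom1 and Rbfox3 at 12 h. Sox9, Syt1, Cnp and Kdr rose at both times, and Vim and Cd68 at 12 h. The part of cell composition in the results was not tested. In cultures measured in bulk, fewer cells of a type and less RNA per cell cannot be told apart.

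LBH589 lowered many of the 49 genes within 6 h, and the same was seen at 12 h. At 6 h, 20 of 49 fell and 1, Polr1e, rose, by limma on all 18652 genes at a Benjamini-Hochberg adjusted p under 0.05, the threshold for every call here. Over all genes tested, 7.31% fell and 8.49% rose in that comparison. Since the members were chosen with earlier results of these data known, this contrast and those that follow are no independent test. At 12 h, 22 fell and 0 rose, against 9.07% and 9.13% of all genes. None of the 49 rose at an unadjusted p under 0.05 either, which 30.69% of all genes passed in either direction and 15.05% as lower. Averaged over both times, 29 fell and 2 rose (Polr1e and Bop1), against 14.4% and 15.7% of all genes. The median log2 change of the 49 was -0.34 at 6 h and -0.34 at 12 h, while that of all genes was -0.02 and 0.01. At both times 19 genes fell, 1 (Noc2l) passed at 6 h only and 3 (Wdr3, Ddx52 and Pes1) at 12 h only, but no difference between the times passed its own test.

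Since the labels give each tumour 1 culture in every group, the same comparisons were made within tumours. With tumour as a block in the fit, 30 genes fell and 5 rose at 6 h (16.0% and 18.0% of all genes), 30 fell and 2 rose at 12 h (18.5% and 18.6%), and 34 fell and 6 rose over both times (22.2% and 23.7%). Every call made at 6 h or at 12 h without the block was also made with it. The 5 that rose at 6 h were Polr1e, Bop1, Rrp9, Rrp12 and Ddx10, and the 2 at 12 h were Bop1 and Rrp12.

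The direction was the same in each tumour. At 6 h the median change of the 49 genes was -0.36 in MP525, -0.33 in MP567 and -0.34 in MP570. At 12 h it was -0.30, -0.28 and -0.44. Of the 49, 38 were lower and 7 higher under LBH589 in all 3 tumours at 6 h, against 30.9% and 29.0% of all genes. At 12 h, 34 were lower and 5 higher in all 3, against 25.5% and 27.3%. In all 6 pairs of cultures 32 were lower (18.71% of all genes) and 5 higher (19.71%), namely Polr1e, Rrp9, Noc4l, Rrp12 and Bop1. The 3 LBH589 arrays lay wholly below the 3 DMSO arrays for 29 genes and wholly above for 3 at 6 h (16.5% and 16.4% of all genes), and for 26 and 1 at 12 h (15.4% and 16.6%). All 6 LBH589 arrays lay below all 6 DMSO arrays for 21 genes and above for 1, Polr1e (8.57% and 9.15%).

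**Figure D1:**
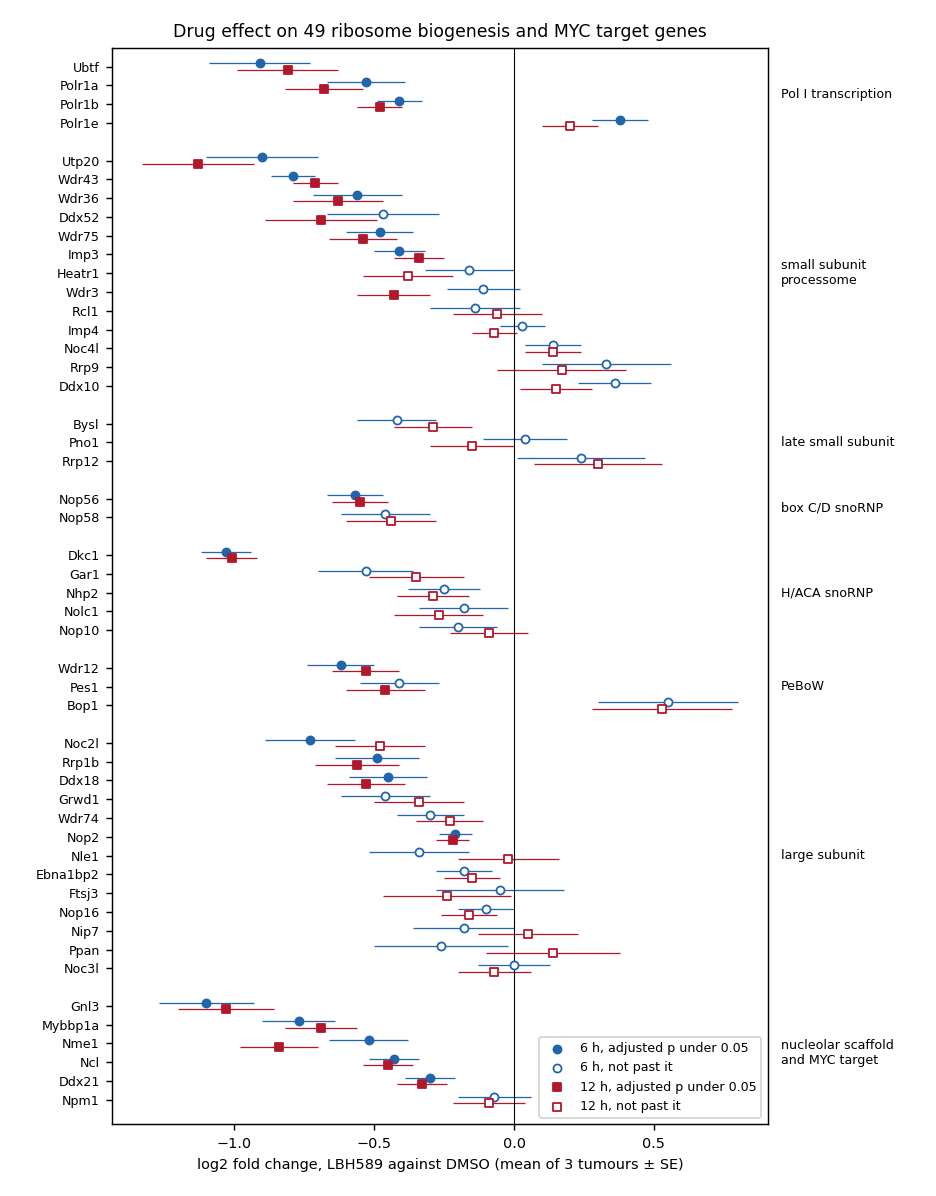
Log2 fold change of each of the 49 genes under LBH589 against DMSO (x axis), at 6 h (blue circles) and 12 h (red squares), with the standard error of the fit. Filled points passed an adjusted p of 0.05, and genes are grouped by role. Most points lie left of 0, with Gnl3, Dkc1 and Utp20 farthest. Bop1, Polr1e, Rrp9, Rrp12, Ddx10 and Noc4l lie to the right at both times.

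Whether these calls pass with fewer arrays was checked by leaving arrays out. Fewer arrays give a test less power, so a call that ended need not rest on the culture left out. Of the 21 calls at 6 h, 12 held without each array in turn, and 3 (Dkc1, Wdr43 and Gnl3) also without each tumour. Of the 22 calls at 12 h, 13 held without each array, and 5 (Dkc1, Wdr43, Utp20, Ncl and Nme1) also without each tumour. The count that fell at 6 h was 5 without MP525, 14 without MP567 and 7 without MP570, and 13 without either the DMSO 6 h array of MP567 or the LBH589 6 h array of MP570. At 12 h it was 11, 18 and 7 without the same tumours, and over both times 18 without MP525. Of the calls, 16 at 6 h and 15 at 12 h held under every scaling. Quantile normalization or centring on reference genes ended those of Ddx18, Ddx21, Nop2, Rrp1b and Nme1 at 6 h and of Ddx21, Ddx52, Imp3, Nop2, Pes1, Rrp1b and Wdr3 at 12 h. With the tumour block the counts that fell without each tumour were 25, 31 and 26 at 6 h and 25, 31 and 24 at 12 h. The shares of all genes called in the fits without an array or tumour were not counted. A loss of calls among the members can therefore not be told from a loss over all genes. Of the same calls, 20 of 21 at 6 h and 21 of 22 at 12 h held with the block without each tumour, an alternative chosen after seeing the data. Where a call is said below to end without an array or tumour, the fit had no block.

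The RefSeq promoter table (GRCm38.p6) was searched for E-box letters from 250 bases before to 50 bases after each gene start. It held 46 of the 50 genes, in 56 promoters. It did not hold Npm1, Wdr36, Rrp12 or Bop1. CACGTG, which reads the same on both strands, occurred in 11 of the 46 genes (23.9%), against 8.09% of all 27025 genes in the table, 10.3% of the tested genes and 18.8% of 85 other ribosome biogenesis genes listed. CACGCG, another sequence MYC and MAX are known to bind, occurred on either strand in 14 of 46 (30.4%). It occurred in 10.5% of all genes, 16.1% of the tested genes and 32.9% of the 85 other ribosome biogenesis genes. The 12 promoters with CACGTG follow, since these are the letters named above as a MYC site. The members were chosen in part as known MYC targets, so the share is a description. Capitals mark CACGTG, the strand is that of the gene, and up to 12 flanking bases are given on each side.
Wdr43, chr17:71616220-71616249, plus strand: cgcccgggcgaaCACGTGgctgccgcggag
Utp20, chr10:88826765-88826789, minus strand: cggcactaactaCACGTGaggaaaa
Mybbp1a, chr11:72441355-72441376, plus strand: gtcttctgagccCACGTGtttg
Nme1, chr11:93968273-93968302, minus strand: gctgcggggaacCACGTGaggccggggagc
Nme1, chr11:93968037-93968066, minus strand: agcttgatacgcCACGTGggctcgcctttg
Pes1, chr11:3963965-3963994, plus strand: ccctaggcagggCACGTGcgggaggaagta
Nop2, chr6:125131811-125131840, plus strand: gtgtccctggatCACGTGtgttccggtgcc
Grwd1, chr7:45830740-45830767, minus strand: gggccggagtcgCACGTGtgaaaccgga
Nle1, chr11:82908355-82908384, minus strand: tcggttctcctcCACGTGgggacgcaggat
Pno1, chr11:17211540-17211564, minus strand: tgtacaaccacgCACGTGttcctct
Imp4, chr1:34439696-34439725, plus strand: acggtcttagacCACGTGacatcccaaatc
Tsr1, chr11:74898092-74898121, plus strand: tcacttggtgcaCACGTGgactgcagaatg

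In 11 of these 12 promoters (91.7%) CACGTG began within 60 bases of the annotated start, against 44.1% of 2589 sites in all promoters, a limit chosen after the positions were seen. Counted from the first transcribed base as 1, it began at 18 in Wdr43, 38 in Utp20, 41 in Mybbp1a, 3 in Pes1, 35 in Grwd1, 24 in Nle1, 38 in Pno1 and 25 in Tsr1, all just inside the transcribed part. It began before the start in Nop2 (-60), Nme1 (-18 and -29 from its annotated starts) and Imp4 (-121). These are matches of letters, and no binding was measured. Of the 10 measured genes with CACGTG, 5 fell at 6 h and 6 at 12 h, with median changes of -0.44 and -0.40. Of the 35 without it, 14 fell and 1 rose at 6 h and 15 fell at 12 h, with medians of -0.30 and -0.34. Imp4 and Pno1 hold the letters and did not pass at either time, and Dkc1 and Gnl3, with the largest falls beside Utp20, have no match in this window.

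The 250 bases upstream of 3 genes are given in full, as examples of a strong fall without CACGTG (Dkc1), a small fall with it (Nop2, in capitals) and the rise of Polr1e. No other gene of the RefSeq table overlaps these windows. The searched promoter of Polr1e also holds CGCGTG, which is CACGCG on the other strand. It begins at 43, past the end of the bases printed.
Dkc1, chrX:75095604-75095853, plus strand: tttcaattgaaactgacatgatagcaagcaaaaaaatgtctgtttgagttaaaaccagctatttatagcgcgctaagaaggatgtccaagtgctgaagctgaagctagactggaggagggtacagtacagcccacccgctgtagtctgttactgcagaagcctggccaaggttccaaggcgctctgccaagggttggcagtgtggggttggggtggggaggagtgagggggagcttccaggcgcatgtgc
Nop2, chr6:125131633-125131882, plus strand: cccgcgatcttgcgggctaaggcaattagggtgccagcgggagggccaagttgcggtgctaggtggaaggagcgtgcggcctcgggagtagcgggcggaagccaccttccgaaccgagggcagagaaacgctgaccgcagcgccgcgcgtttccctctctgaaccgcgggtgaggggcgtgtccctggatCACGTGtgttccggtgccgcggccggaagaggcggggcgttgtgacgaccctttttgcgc
Polr1e, chr4:45018359-45018608, plus strand: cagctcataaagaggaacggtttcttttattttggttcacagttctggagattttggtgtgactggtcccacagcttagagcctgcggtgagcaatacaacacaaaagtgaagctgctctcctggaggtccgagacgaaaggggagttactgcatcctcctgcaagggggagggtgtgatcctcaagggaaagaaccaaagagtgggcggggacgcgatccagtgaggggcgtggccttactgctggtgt

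The 4 members of RNA polymerase I transcription split. Polr1a and Polr1b, the subunits that form the polymerase's active centre, and Ubtf, the factor that keeps ribosomal DNA open for it, fell at both times. Polr1e, a peripheral subunit, rose at 6 h. Ubtf stood at 11.63, 11.50 and 11.52 in MP525, MP567 and MP570 under DMSO at 6 h and at 10.39, 11.01 and 10.54 under LBH589. At 12 h it stood at 11.56, 11.69 and 11.56 and at 10.49, 11.14 and 10.76. All LBH589 arrays lay below all DMSO arrays, with MP567 the highest of the treated cultures. Its log2 change was -0.91 ± 0.18 (SE, 3 arrays a group, adjusted p 0.00509) at 6 h and -0.81 ± 0.18 (adjusted p 0.00823) at 12 h by limma, which leaves 53.4% and 57.2% of the DMSO level. These calls ended without MP525 (adjusted p 0.0774 and 0.0749) or MP570 (0.121 and 0.124) in the fit with no block. The change was then -0.74 and -0.68 without MP525 and -0.87 and -0.81 without MP570. With the block, the limma adjusted p without any 1 tumour was at most 0.00712 and 0.0087.

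Polr1a stood at 11.13, 11.03 and 10.65 under DMSO at 6 h and at 10.42, 10.47 and 10.32 under LBH589. After 12 h it stood at 11.00, 11.10 and 10.88 against 10.40, 10.39 and 10.13. The treated arrays lay below the DMSO arrays at both times, and the change was -0.53 ± 0.14 (limma adjusted p 0.0214) and -0.68 ± 0.14 (0.00517). The 6 h call ended without any of 4 arrays, with adjusted p up to 0.0836 (without the DMSO 6 h array of MP525). Polr1b changed by -0.41 ± 0.08 (0.00623) and -0.48 ± 0.08 (0.0025), and its treated arrays, at 10.65 to 10.67 at 6 h, hardly differed between tumours.

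Polr1e moved the other way. It stood at 9.40, 9.36 and 9.48 under DMSO at 6 h and at 9.83, 9.69 and 9.85 under LBH589, and at 9.43, 9.35 and 9.46 against 9.63, 9.55 and 9.65 at 12 h. Every treated array lay above every DMSO array. The change was 0.38 ± 0.10 (limma adjusted p 0.0259, 129.9% of the DMSO level) at 6 h and 0.20 ± 0.10 (0.215, with a 95% interval of -0.02 to 0.42) at 12 h. The 6 h call ended without any of 4 arrays, with adjusted p up to 0.0977 without the LBH589 6 h array of MP570.

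Of the 13 members of the small subunit processome, the particle that assembles on the 5′ end of the precursor RNA, 5 fell at 6 h and 7 at 12 h, with medians of -0.16 and -0.38. Utp20, a very large scaffold protein of the particle, fell most. It stood at 10.65, 10.60 and 9.97 under DMSO at 6 h and at 9.59, 9.61 and 9.33 under LBH589. The 12 h values were 10.40, 10.54 and 10.17 against 9.44, 9.36 and 8.93. The groups did not overlap, although MP570 started lower than the other tumours under DMSO. The change was -0.90 ± 0.20 (limma adjusted p 0.0106) and -1.13 ± 0.20 (0.00267), a 1.86-fold and a 2.18-fold fall, and the 6 h call ended without MP525 (0.137) or MP567 (0.0763).

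Wdr43, also called UTP5, an early factor that joins precursor transcription to processing, was among the most even falls. It stood at 12.33, 12.25 and 12.34 under DMSO at 6 h and at 11.58, 11.37 and 11.58 under LBH589, and at 12.13, 12.20 and 12.16 against 11.54, 11.36 and 11.46 at 12 h. The groups were far apart in all 3 tumours. The change was -0.79 ± 0.08 (limma adjusted p 0.00016) and -0.71 ± 0.08 (0.000247). Its CACGTG, shown above, begins 18 bases into the gene.

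Wdr75, a partner of Wdr43 in the same early subcomplex, changed by -0.48 ± 0.12 and -0.54 ± 0.12 (limma adjusted p 0.015 and 0.0072). Wdr36 changed by -0.56 ± 0.16 and -0.63 ± 0.16 (0.0353 and 0.018). Imp3, which helps the U3 RNA pair with the precursor, changed by -0.41 ± 0.09 and -0.34 ± 0.09 (0.00771 and 0.0173). Each of these calls but those of Imp3 at 6 h and Wdr75 at 12 h ended without some single array, with adjusted p up to 0.0519 for Wdr75 (without the DMSO 6 h array of MP570), 0.127 for Wdr36 (without the same array) and 0.0697 for Imp3 (without the DMSO 12 h array of MP570). At 12 h Wdr3 (-0.43 ± 0.13, 0.041) and the helicase Ddx52 (-0.69 ± 0.20, 0.0298) also fell, with adjusted p up to 0.132 and 0.11 without single arrays.

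The other processome members did not pass at either time. Heatr1, known as UTP10, changed by -0.16 ± 0.16 and -0.38 ± 0.16, and the 12 h fall passed with the tumour block (limma adjusted p 0.00147). Imp4, a partner of Imp3, changed by 0.03 ± 0.08 and -0.07 ± 0.08, with 95% intervals of -0.15 to 0.21 and -0.25 to 0.12. Rcl1, a cyclase-like factor, changed by -0.14 and -0.06 and Noc4l by 0.14 and 0.14. Over both times Noc4l passed as a rise with the block (limma adjusted p 0.0288). Rrp9, a protein of the U3 snoRNP, changed by 0.33 ± 0.23 and 0.17 ± 0.23 and the helicase Ddx10 by 0.36 ± 0.13 and 0.15 ± 0.13. Both rises passed at 6 h with the block (0.00693 and 0.0147). Rrp9 stood at 10.17 to 11.04 under DMSO at 6 h and at 10.65 to 11.20 under LBH589, so that the groups overlapped while each tumour was higher.

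The 3 measured late factors of the small subunit did not pass at 6 h or at 12 h without the block. Bysl, bystin, which stays on the maturing particle until late, changed by -0.42 ± 0.14 and -0.29 ± 0.14, passed at each time with the block (limma adjusted p 0.00117 and 0.0125) and over both times without it (-0.35 ± 0.10, 0.0176). Rrp12, which takes part in the export of both subunits, changed by 0.24 ± 0.23 and 0.30 ± 0.23 and rose with the block (0.0297 and 0.00885). Pno1, which binds the 3′ end of the maturing small subunit RNA, changed by 0.04 ± 0.15 and -0.15 ± 0.15.

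The snoRNP proteins fall into those of box C/D particles, which methylate RNA, and those of box H/ACA particles, which make pseudouridine. Of the box C/D core, Nop56 changed by -0.57 ± 0.10 and -0.55 ± 0.10 (limma adjusted p 0.00338 and 0.00354) and its partner Nop58 by -0.46 ± 0.16 and -0.44 ± 0.16, which passed at each time with the block (0.00162 and 0.00219) and over both times without it (0.00939).

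Dkc1, dyskerin, is the pseudouridine synthase of the H/ACA particles and also a part of telomerase. It stood at 12.11, 12.10 and 12.13 under DMSO at 6 h and at 11.06, 11.05 and 11.11 under LBH589. At 12 h it stood at 11.84, 11.97 and 11.96 against 11.10, 10.77 and 10.86. The 3 tumours were nearly identical at 6 h. The change was -1.03 ± 0.09 (limma adjusted p 8.41e-05) and -1.01 ± 0.09 (6.23e-05), with 95% intervals of -1.24 to -0.83 and -1.21 to -0.81, or 48.8% and 49.5% of the DMSO level. Both calls held in every alternative run, among them leaving out each array or tumour and each scaling.

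The partners of dyskerin moved less. Gar1 changed by -0.53 ± 0.17 and -0.35 ± 0.17, Nhp2 by -0.25 ± 0.13 and -0.29 ± 0.13, Nop10 by -0.20 ± 0.14 and -0.09 ± 0.14, and Nolc1, a chaperone of snoRNPs, by -0.18 ± 0.16 and -0.27 ± 0.16. None of the 4 passed at 6 h or at 12 h without the block, but over both times Gar1 (-0.44 ± 0.12, limma adjusted p 0.0158) and Nhp2 (-0.27 ± 0.09, 0.047) did. With it Gar1 (limma adjusted p 0.000801 and 0.013) and Nhp2 (0.0137 and 0.00519) fell at both times, Nop10 at 6 h (0.0154) and Nolc1 at 12 h (0.0157). Whether Dkc1 differs from its partners was not tested, since the values come from different probe sets.

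Pes1, Bop1 and Wdr12 form PeBoW, a complex needed to mature the large subunit RNA, and they moved in opposite directions. Pes1 stood at 11.22, 11.52 and 11.42 under DMSO at 6 h and at 10.84, 11.18 and 10.90 under LBH589, and at 11.20, 11.46 and 11.13 against 10.68, 11.04 and 10.68 at 12 h. It was lower in every tumour, by -0.41 ± 0.14 (limma adjusted p 0.0724, with the block 0.000466) and -0.46 ± 0.14 (0.0428). The 12 h call ended without any of 8 arrays, with adjusted p up to 0.149 without the DMSO 12 h array of MP567. Wdr12 stood at 10.41, 10.25 and 10.28 against 9.83, 9.58 and 9.66 at 6 h and at 10.16, 10.15 and 10.10 against 9.78, 9.63 and 9.42 at 12 h. The groups did not overlap, and it fell by 0.62 ± 0.12 (0.00497) and by 0.53 ± 0.12 (0.0103) on the log2 scale.

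Bop1 rose in every tumour. It stood at 11.37, 10.73 and 11.49 under DMSO at 6 h and at 11.89, 11.36 and 11.99 under LBH589, and at 11.19, 10.54 and 11.22 against 11.68, 11.21 and 11.65 at 12 h. MP567 lay below the other tumours in each group, so that the groups overlapped. The change was 0.55 ± 0.25 (limma adjusted p 0.17) and 0.53 ± 0.25 (0.172), and with the tumour block it passed at both times (3.36e-05 and 3.94e-05). Averaged over both times it passed without the block too (0.0355).

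**Figure D2:**
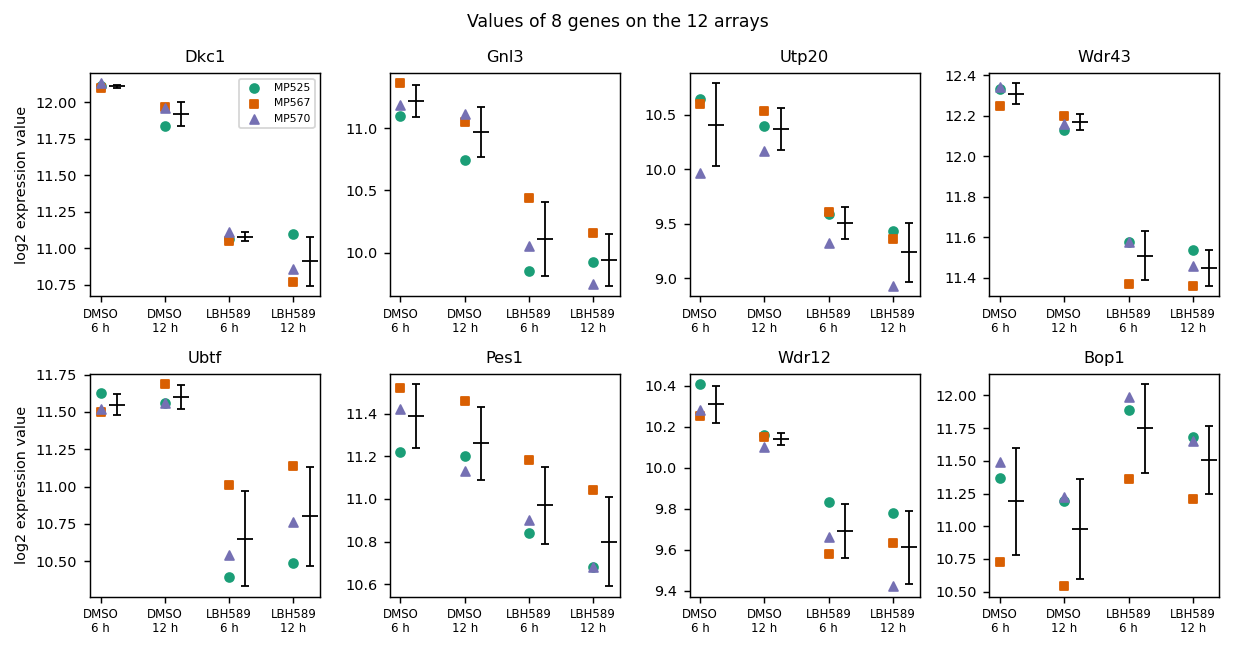
Log2 expression value (y axis) of Dkc1, Gnl3, Utp20, Wdr43, Ubtf, Pes1, Wdr12 and Bop1 on the 12 arrays, by treatment and time (x axis), 1 symbol per tumour; black bars are the group mean ± SD of 3 arrays. Dkc1 falls from 12.11 to 11.08 at 6 h with almost no spread, and Bop1 rises in each tumour with MP567 below the others.

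Of the 13 other large subunit factors, 4 fell at 6 h and 3 at 12 h without the block and 7 and 5 with it. Noc2l, a nucleolar protein of the maturing large subunit, stood at 12.58, 12.47 and 12.39 under DMSO at 6 h and at 11.62, 12.06 and 11.58 under LBH589. Its fall was uneven between tumours, -0.73 ± 0.16 (limma adjusted p 0.0101) at 6 h and -0.48 ± 0.16 (0.0602, with the block 0.00386) at 12 h. The 6 h call ended without MP525 (0.169) or MP570 (0.119). Rrp1b changed by -0.49 ± 0.15 and -0.56 ± 0.15 (0.0428 and 0.0215), and the helicase Ddx18, a MYC target, by -0.45 ± 0.14 and -0.53 ± 0.14 (0.0495 and 0.022). Nop2, an RNA methyltransferase and proliferation antigen, changed little but evenly, by -0.21 ± 0.06 and -0.22 ± 0.06 (0.0333 and 0.0273). Calls of these 3 genes ended without single arrays at both times, with adjusted p up to 0.157 for Rrp1b (without the DMSO 6 h array of MP567), 0.15 for Ddx18 (without the LBH589 6 h array of MP570) and 0.111 for Nop2 (without the DMSO 6 h array of MP567).

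The remaining large subunit factors did not pass at 6 h or at 12 h without the block, but over both times Grwd1 (-0.40 ± 0.12, limma adjusted p 0.0219) and Wdr74 (-0.26 ± 0.08, 0.033) did. Grwd1 changed by -0.46 ± 0.16 and -0.34 ± 0.16 and passed with the block at each time (0.000843 and 0.00627). Wdr74 (-0.30 and -0.23, 0.016 with the block at 6 h) and Nle1 (-0.34 and -0.02, 0.0224 with the block at 6 h) passed with it at 6 h. Ebna1bp2 changed by -0.18 and -0.15, Nop16 by -0.10 and -0.16, Ftsj3 by -0.05 and -0.24, Nip7 by -0.18 and 0.05, and Noc3l by 0.00 and -0.07. Noc3l had 95% intervals of -0.29 to 0.29 and -0.36 to 0.21.

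Of the 6 nucleolar scaffold proteins and MYC targets, 5 fell at both times. Gnl3, nucleostemin, a nucleolar GTPase of stem and tumour cells, stood at 11.10, 11.36 and 11.19 under DMSO at 6 h and at 9.85, 10.44 and 10.05 under LBH589. After 12 h the values were 10.74, 11.05 and 11.11 against 9.92, 10.16 and 9.75. The groups did not overlap, and the change was -1.10 ± 0.17 (limma adjusted p 0.00142) and -1.03 ± 0.17 (0.00177), a 2.15-fold and a 2.04-fold fall. The 12 h call ended without MP570 (0.0799).

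Mybbp1a, a nucleolar protein that binds MYB and takes part in the p53 response, stood at 12.30, 12.39 and 12.33 under DMSO at 6 h and at 11.39, 11.82 and 11.49 under LBH589. It changed by -0.77 ± 0.13 (limma adjusted p 0.00238) and -0.69 ± 0.13 (0.00384). The treated MP567 arrays were the highest of the treated arrays at both times. Without MP525 or MP570 the adjusted p lay between 0.0571 and 0.08. The change was then -0.71 and -0.74 at 6 h and -0.62 and -0.68 at 12 h.

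Nme1, a nucleoside diphosphate kinase and known MYC target, stood at 10.22, 10.54 and 10.48 under DMSO at 6 h and at 9.73, 10.08 and 9.87 under LBH589, and at 10.27, 10.47 and 10.21 against 9.35, 9.62 and 9.46 at 12 h. It changed by -0.52 ± 0.14 (limma adjusted p 0.0242) and -0.84 ± 0.14 (0.00168). The 6 h call ended without any of 4 arrays, with adjusted p up to 0.0956 without the LBH589 6 h array of MP525. Ncl, nucleolin, the abundant histone chaperone of the nucleolus, changed by -0.43 ± 0.09 and -0.45 ± 0.09 (0.00718 and 0.00452), and the helicase Ddx21 by -0.30 ± 0.09 and -0.33 ± 0.09 (0.046 and 0.0283). The Ddx21 calls ended without single arrays, with adjusted p up to 0.172 (without the DMSO 6 h array of MP567), and with quantile normalization (0.175 and 0.149). Npm1, nucleophosmin, changed by -0.07 ± 0.13 and -0.09 ± 0.13.

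For 6 members the array held further probe sets, and some disagreed. Npm1 changed by -0.07 and -0.09 on the probe set used and by -0.42 and -0.68 on a dimmer one. Ppan, a factor of the large subunit, changed by -0.26 and 0.14 on the probe set used, where MP567 was higher under LBH589 at both times and MP525 lower, and by -0.76 and -0.55 on the other. Nop56 changed by -0.89 and -1.05 on another probe set and by -0.41 and -0.27 on one more. Its calls ended when a gene's probe sets were averaged (limma adjusted p 0.127 and 0.117), as did those of Ddx18 (0.131 and 0.0884) and Ddx21 (0.0968 and 0.319) and the 12 h call of Imp3 (0.059). Ddx21 changed by -0.46 and -0.12, Ddx18 by -0.29 and -0.29, and Imp3 by -0.37 and -0.20 on their dimmer probe sets. No source used here gives the transcripts that these probe sets read.

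**Figure D3:**
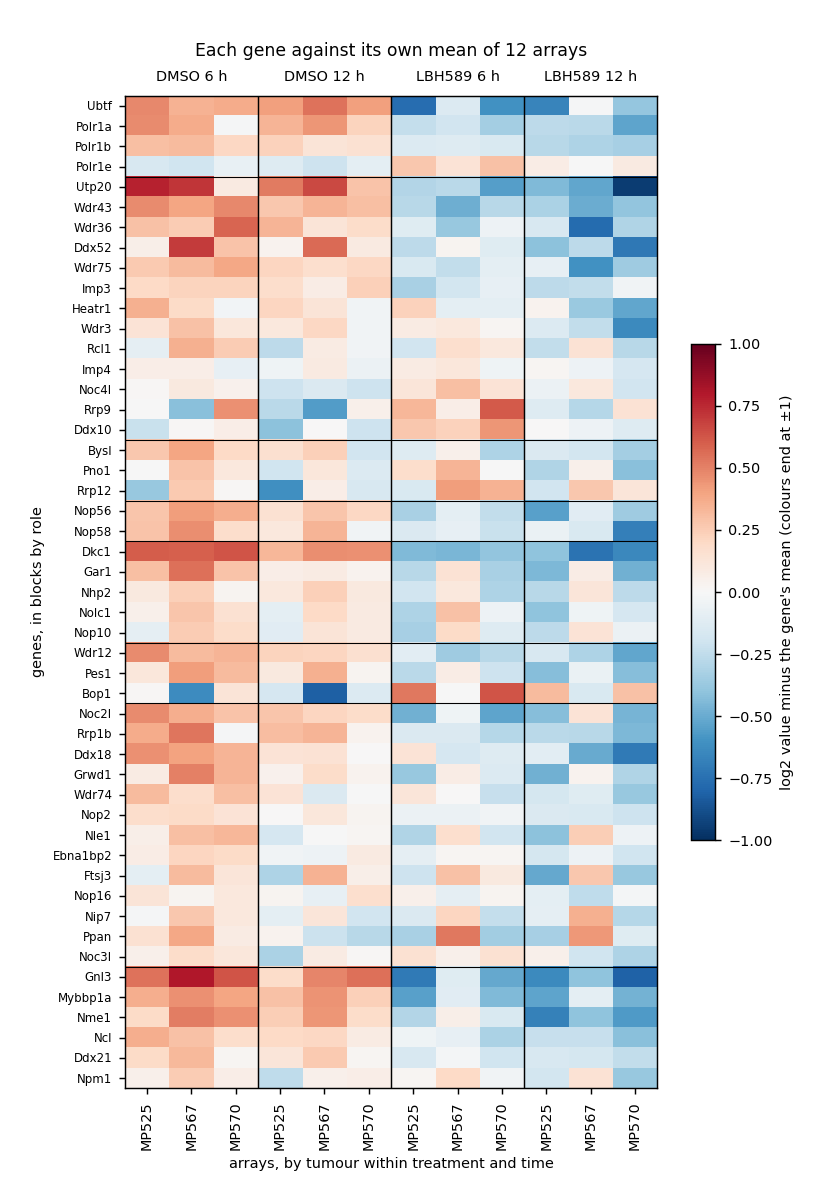
The 49 genes (rows, in blocks by role) on the 12 arrays (columns, by treatment, time and tumour), as the log2 value minus the gene's own mean of 12 arrays; colours end at ±1. DMSO columns are mostly red and LBH589 columns mostly blue, except MP567 under LBH589 at 6 h, where 22 genes lie below their own mean. Polr1e is largely the reverse. Rrp9, Ddx10, Rrp12 and Bop1 are mixed, with colours that also vary by tumour and time.

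No fall of Myc was detected. Myc stood at 8.66, 8.34 and 8.53 in MP525, MP567 and MP570 under DMSO at 6 h and at 8.61, 8.58 and 8.60 under LBH589. At 12 h it stood at 8.71, 8.41 and 8.45 against 8.78, 8.69 and 8.72. The change was 0.09 ± 0.12 (limma adjusted p 0.697, 95% interval -0.16 to 0.34) at 6 h and 0.21 ± 0.12 (0.26, -0.05 to 0.46) at 12 h, so a fall of Myc by more than 0.16 lies outside the interval. With the block the adjusted p was 0.521 and 0.0932.

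The mean of the 49 genes on each array is set beside Myc. It stood at 11.17, 11.28 and 11.20 under DMSO at 6 h and at 10.85, 10.99 and 10.87 under LBH589. After 12 h it stood at 11.03, 11.14 and 11.05 against 10.73, 10.85 and 10.65. Every treated array lay below every DMSO array, while the mean of all tested genes stayed between 8.38 and 8.43. MP567 had the highest mean of the 49 in each group and the lowest Myc in each group. The MP567 cultures showed Myc differences of 0.24 and 0.28 under LBH589 with member medians of -0.33 and -0.28, and the MP525 cultures differences of -0.05 and 0.07 with medians of -0.36 and -0.30. In the MP570 cultures the differences were 0.07 and 0.28, with medians of -0.34 and -0.44. A larger Myc difference thus did not go with a smaller fall of the members in every tumour. No correlation is given, since the 12 arrays come from 3 tumours and share the treatment.

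**Figure D4:**
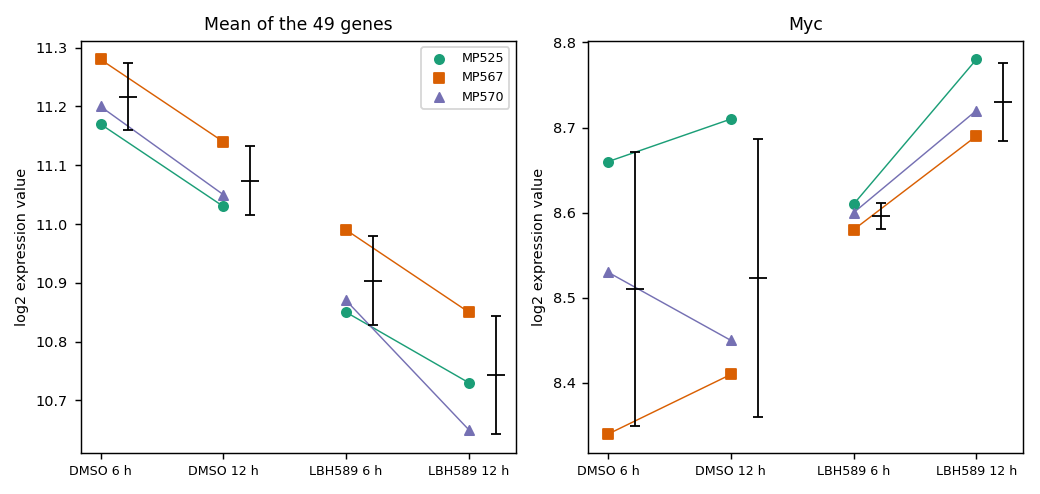
Mean log2 value of the 49 genes (left) and log2 value of Myc (right) on each array, by treatment and time; symbols are tumours, lines join the 6 h and 12 h cultures of a tumour, and black bars are the group mean ± SD of 3 arrays. The mean of the 49 drops from 11.17 to 11.28 under DMSO at 6 h to 10.65 to 10.85 under LBH589 at 12 h, while Myc lies between 8.34 and 8.78 on all arrays.

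Other genes of the MYC network are given for context. Of 12 tested, 3 rose at 6 h and 1 at 12 h, and 0 fell. With the block 4 and 5 rose, and 1 fell at 12 h (Mycl, -0.33, limma adjusted p 0.0482). Over all genes 8.49% and 9.13% rose, and 18.0% and 18.6% with the block. The 1 that rose at 12 h (8.333%) is thus near the share of all genes. Mxd1, which competes with MYC for MAX and represses E-box genes, stood at 9.78, 9.94 and 9.69 under DMSO at 6 h and at 10.72, 11.01 and 10.69 under LBH589. The 12 h values were 9.63, 10.01 and 9.78 against 10.52, 11.10 and 10.58. The groups did not overlap, and the limma adjusted p was 0.00247 at 6 h and 0.00321 at 12 h, where the log2 change was 0.93 ± 0.17. Mxd3, of the same family, changed by 0.60 (0.0147) and 0.41 (0.0687), and Mlxip, a glucose-sensing partner of MLX, by 0.61 (0.021) and 0.32 (0.184). Max changed by 0.10 and 0.07. Mycn changed by 0.29 and 0.33 and passed at each time with the block only (0.0449 and 0.0217), and over both times without it (0.31 ± 0.09, 0.0257).

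Known MYC targets outside the ribosome were also followed, in a list likewise made with earlier results of these data known. Of 29 tested, 13 fell at 6 h and 17 at 12 h, against the 7.31% and 9.07% of all genes given above, and 0 rose, with medians of -0.30 and -0.44. With the block 19 fell and 0 rose at 6 h, and 22 fell and 1 rose at 12 h, where 16.0% and 18.5% of all genes fell. Tfap4, a transcription factor, changed by -1.15 ± 0.17 and -0.99 ± 0.17 (limma adjusted p 0.00097 and 0.00193). Srm, spermidine synthase, changed by -0.81 ± 0.06 and -0.64 ± 0.06 (2.84e-05 and 6.32e-05), and Slc19a1, the folate carrier, by -0.94 and -0.69 (0.00421 and 0.0177). Cad, the enzyme that starts pyrimidine synthesis, changed by -0.61 (0.0662) and -0.79 (0.0187).

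Further ribosome biogenesis genes, not among the members, were listed by role. For these lists and those that follow, 7.31% of all genes fell and 8.49% rose at 6 h, and 9.07% and 9.13% at 12 h. With the block the shares were 16.0% and 18.0%, then 18.5% and 18.6%. Of 31 other small subunit factors, 5 fell and 1 rose at 6 h and 5 fell at 12 h (10 and 2, then 13 and 2, with the block), with medians of -0.14 and -0.18. Ltv1, needed for small subunit export, changed by -0.63 and -0.47 (limma adjusted p 0.00357 and 0.0148). Of 35 other large subunit factors, 7 fell and 3 rose at 6 h and 9 fell at 12 h (12 and 5, then 15 and 3, with the block), with medians of -0.10 and -0.16. Rpf1 changed by -0.53 and -0.54 (0.00127 and 0.00087), and Eif6, which keeps the subunits apart, by 0.26 and 0.17 (0.0227 and 0.109). The difference between these lists and the 49 was not tested.

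Of 13 other genes of RNA polymerase I transcription, 0 fell and 1 rose at 6 h, and 1 fell and 1 rose at 12 h (4 and 1, then 4 and 2, with the block). Baz2a, known as TIP5, which silences ribosomal DNA repeats, rose by 1.04 ± 0.11 and by 0.76 ± 0.11 (limma adjusted p 0.000196 and 0.000892). Rrn3, which brings the polymerase to the promoter, changed by -0.42 and -0.53 (0.0836 and 0.0284). Of 11 other snoRNP genes, 0 fell and 1 rose at 6 h and 1 fell and 1 rose at 12 h (3 and 1, then 5 and 1, with the block). Shq1, the chaperone of dyskerin, rose by 0.57 and by 0.60 (0.0439 and 0.0325) while Dkc1 fell.

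Of 12 genes of the RNA exosome, which trims precursor RNA, 3 fell at each time (6 and 9 with the block). Exosc10, its nuclear nuclease, changed by -0.87 ± 0.07 and -0.62 ± 0.07 (limma adjusted p 6.74e-05 and 0.000304). The cytosolic ribosomal proteins stayed nearly level. Of 55 tested, 1 fell at each time (Rpl27a, -0.56 and -0.57) and 0 rose, with medians of -0.01 and 0.03. With the block 6 fell at 6 h (10.91%, against 16.0% of all genes). At 12 h with the block 3 fell and 9 rose (5.455% and 16.36%, against 18.5% and 18.6% of all genes).

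Most of the 49 values were lower at 12 h than at 6 h under both treatments, and none passed the limma test without the block. These comparisons share arrays with the drug comparisons and are not independent of them. Under DMSO 45 of 49 values were below 0, with a median of -0.14 against 0.00 for all genes, and 0 passed in either direction by limma with or without the block (over all genes 0% fell and 0.0214% rose, and 0.0911% and 0.220% with the block). At an unadjusted p under 0.05, 2 were lower without the block (Noc4l and Wdr74) and 19 with it, against 0.8739% and 3.437% of all genes. In single tumours 45, 44 and 40 of the 49 were lower at 12 h in MP525, MP567 and MP570, against 47.16%, 46.35% and 56.44% of all genes. The lowest values were those of Ppan (-0.36 ± 0.24), Gar1 (-0.32 ± 0.17) and Ddx18 (-0.30 ± 0.14). Of the ribosomal protein genes 50 of 55 were also below 0, with a median of -0.09.

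Under LBH589 41 of 49 values were below 0, with a median of -0.15 against 0.01 for all genes. Without the block 0 passed (0% of all genes in either direction), and 6 members were lower at an unadjusted p under 0.05, against 3.705% of all genes. With the block 4 fell, against 1.27% lower and 0.724% higher of all genes. These were Wdr3 (-0.41 ± 0.09, limma adjusted p 0.0395), Rrp9 (-0.42 ± 0.08, 0.0257), Pno1 (-0.39 ± 0.08, 0.0264) and Nme1 (-0.42 ± 0.08, 0.0256). The drug effect at 12 h minus that at 6 h had a median of -0.03 and ran from -0.33 in Wdr3 to 0.40 in Ppan. By limma 0 members passed with or without the block (0.0107% of all genes lower with it). At an unadjusted p under 0.05 there were 0 without the block and 2, Wdr3 and Nme1, lower with it. Over all genes 1.088% were lower without the block and 5.297% with it, so the 2 are no more than the share of all genes.

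The tumours also differed in the level of these genes. With treatment and time in the fit, 31 of 49 differed between tumours by limma's moderated F (37.4% of all genes). This test sets tumours against the spread of cultures, with 4 cultures each, and not against the spread of animals. MP567 had the highest mean for 34 of 49. Against MP525 it was higher for 20 and lower for 4 (13.4% and 13.9% of all genes), and MP570 was lower than MP567 for 22 and higher for 4 (10.8% and 14.4%). MP570 against MP525 gave 4 higher and 6 lower (11.2% and 7.63%).

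Bop1 differed most, at a mean of 11.53 in MP525, 10.96 in MP567 and 11.59 in MP570 (limma adjusted p of the F 5.06e-06), lowest in MP567. Rrp9, at 10.57, 10.29 and 10.90 (6.76e-05), was ordered the same way. Rrp12, at 9.69, 10.27 and 10.10 (5.78e-05), and Ftsj3, at 10.44 in MP525 and 11.03 in MP567 (0.000188), were highest in MP567. Utp20 was lowest in MP570, at 10.02, 10.03 and 9.60 (0.0013). Dkc1, at 11.53, 11.47 and 11.52, did not pass (0.809). Myc, lowest in MP567 on the DMSO arrays, did not pass either (0.192).

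**Figure D5:**
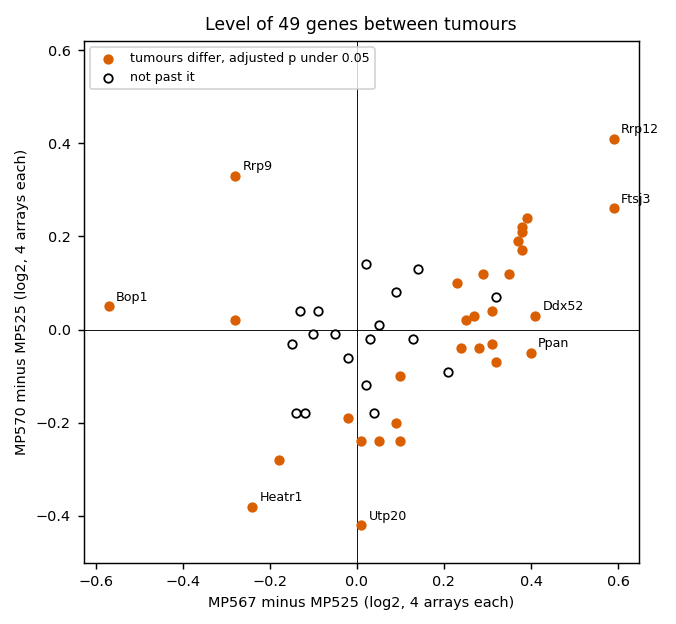
Difference in log2 level of the 49 genes between tumours, MP567 minus MP525 (x axis) and MP570 minus MP525 (y axis), each over 4 arrays; filled points are genes whose level differed between tumours at an adjusted p under 0.05. Most filled points lie right of 0, where MP567 is higher, with Rrp12 and Ftsj3 at 0.59 and Bop1 at -0.57.

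The size of the drug effect differed between tumours for 1 member of 49, Ubtf (limma adjusted p of the F 0.0492), against 1.06% of all genes. Averaged over both times it changed by -1.16 ± 0.09 in MP525, -0.52 ± 0.09 in MP567 and -0.89 ± 0.09 in MP570. The call ended with each array centred on its median (0.0993), without a filter on dim genes (0.0591), with probe sets averaged by gene (0.0513) and without the mean-variance trend (0.151). Noc2l had a like order, at -0.83, -0.24 and -0.73, and did not pass (0.0528).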

How the data were processed

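The 12 arrays were whole-transcript mouse gene arrays hybridised with total RNA of 3 tumours in 4 groups. The authors deposited log2 values per probe set, and the background correction, normalization and summarisation behind them are not given in the sources used here. The submitters' processing notes name Agilent Feature Extraction 10.7.3.1 without a role. The deposited values (1.501 to 14.47) were used without further scaling.

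Of 41345 probe sets, the platform annotation gives 1 gene to 23521, several to 1814 and none to 16010, and only the first kind was used. Symbols were updated through Entrez numbers for 23328 and kept for 193. For each gene the probe set with the highest mean was used, and a gene was tested if it lay above the array's 25th percentile on at least 3 arrays.

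The 4 group means of each gene were fitted by limma (version 3.58.1, under R 4.3.3), which left 8 residual degrees of freedom. Variances were then moderated towards their trend with mean level. All tests were two-sided, with Benjamini-Hochberg adjustment over the 18652 genes. The F tests between tumours used fits with tumour terms, with 6 and 5 residual degrees of freedom. The fits were first tested on simulated data. The sample titles give same-numbered arrays the same tumour, so the tumour block stands as a paired analysis. Deviations from group means correlated at 0.45 to 0.805 in all 18 same-tumour pairs. They correlated at -0.51 to -0.0577 in 36 pairs of another tumour and group. Deviations within a group cancel out, so positive same-tumour values force negative ones elsewhere, and the negative range is no separate evidence.

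The named genes are the 49 members, and other genes come from lists by role. The members and lists were chosen with earlier results of these data known. Alternatives were the tumour block, 3 other scalings, 2 other filters, other probe set choices, no trend, and leaving out each array or tumour. Promoters came from RefSeq (GRCm38.p6).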

Additional observations from a re-analysis of the deposited data

Results flagged for a closer look

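Ubtf is the one member whose response to LBH589 differed between tumours by a test of the difference itself, the moderated F of limma over the tumour by treatment terms (adjusted p 0.04925 over all genes tested). That is 1 of 49 members, or 2.04%, near the 1.06% of all genes called. The call ended with arrays centred on their medians (0.0993), without a filter on dim genes (0.0591), with probe sets averaged by gene (0.0513) and without the mean-variance trend (0.151). The mean change over both times was -1.16 in MP525, -0.52 in MP567 and -0.89 in MP570, and all 3 tumours were lower under LBH589 at both times. The cause was not tested.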

How the results depend on the processing

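With tumour as a replicate block, the members that rose were 5 at 6 h, 2 at 12 h and 6 over both times, and 4 fell from 6 h to 12 h under LBH589; with tumour as a random replicate block 3, 1 and 6 rose. With the block and without all arrays of MP525, MP567 and MP570 in turn, an alternative chosen after seeing the data, 2, 5 and 3 rose at 6 h and 1, 2 and 1 at 12 h, and without MP567 31 fell at 6 h with a median of -0.39. The median of the members at 12 h was -0.25 with quantile normalization, -0.44 with arrays centred on their medians and -0.25 with arrays centred on reference genes. At 6 h it was -0.39 with arrays centred on their medians, -0.38 with probe sets averaged by gene and -0.41 with the least bright probe set of each gene, the last also chosen after seeing the data. These scalings moved the median of all genes to between -0.09 and 0.09. With arrays centred on their medians 1 member rose over both times. The single call of a drug effect that differed between tumours became 0 with arrays centred on their medians, without a filter on dim genes, with probe sets averaged by gene and without the trend.

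Without single arrays or single tumours, with no block, the count that fell ran from 5 to 20 at 6 h, 7 to 22 at 12 h and 18 to 29 over both times. The count that rose ran from 0 to 1, 0 to 1 and 0 to 2. The shares of all genes were not counted in any fit without an array or tumour, with or without the block. The median ran from -0.42 to -0.30 at 6 h. Where a group was left with fewer arrays, the spread was pooled over groups. No direction of a member that passed the test reversed in any alternative run. Probes near the array background and the 3 arrays a group limit what small changes can be seen. The cause of these shifts was not tested.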
